A study of Mus musculus with 20 samples.

Results

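Cell cycle and proliferation genes were followed as a list of 36 genes, 15 that act in DNA replication and 21 that act in mitosis, chosen by name among the 24421 gene symbols counted in this series. All 36 were present in the files, and all 36 passed the filter on low counts that left 14792 genes to test. The cells were mouse motor neurons, derived in culture from embryonic stem cells and labelled NIP, a cranial type, or NIL, a spinal type. In this field the letters name the introduced transcription factors, with Neurog2 and Isl1 in both lines, Phox2a in NIP and Lhx3 in NIL. Cyclopiazonic acid (CPA), an inhibitor of the SERCA calcium pumps that is used to stress the endoplasmic reticulum, was given at 20 µM on day 2 of culture. Each line was collected at 0 h, after 12 h with CPA and untreated, and after 36 h with CPA and untreated, with 2 replicate libraries in each of these 10 groups. All groups shared the day 2 start and a neuronal medium with 2% fetal bovine serum. Sample titles gave the later times as 12 h and 36 h and were followed here, while the treatment text gave 6 h and 12 h. The labels name no clone and no genotype beyond the line, and do not say whether libraries of a line and replicate number came from 1 differentiation.

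Dividing cells copy their DNA in S phase and share it out in mitosis, and each step has its own group of genes. Cdc6 and Cdt1 load the ring of Mcm2 to Mcm7 onto replication origins, cyclin E with its kinase starts S phase, Pcna clamps the polymerase to DNA, and Rrm1, Rrm2 and Tyms make nucleotides. Later, Cdk1 with cyclins A and B drives entry into mitosis, spindle motors and kinetochore proteins move the chromosomes, and Cdc20 starts their separation. E2F factors bind promoters of many S phase genes, and the CHR element with CCAAT boxes is known from promoters of mitotic genes. Neurons leave the cell cycle when they are born, so that transcripts of these genes in neuronal cultures are often read as a sign of cells that still divide.

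The promoters are shown because the members were set apart by role. RefSeq windows on GRCm38.p6, from 250 bases before the RefSeq start of a gene to 50 bases after it, were found for 29 of the 36 members, 13 of replication and 16 of mitosis. They were searched on both strands for the CHR words TTTGAA and TTCGAA, for the E2F words TTTCCCGC, TTTCGCGC, TTTGCCGC and TTTGGCGC, and for CCAAT. A CHR word was present in 13 of 16 mitosis promoters (81.2%) and in 2 of 13 replication promoters (15.4%), against 21.7% of all 27025 genes with such a window. An E2F word was present in 6 of 13 replication promoters (46.2%) and in 1 of 16 mitosis promoters (6.25%, Cdk1), against 2.6% of all genes. CCAAT stood in 15 of 16 mitosis promoters (93.8%) and 8 of 13 replication promoters (61.5%), against 41.1% of all genes. In each of the 13 mitosis promoters with a CHR word, the nearest one began within 100 bases of the RefSeq start. The 6 windows printed here, 3 of each role, were chosen after their words were seen, to show both arrangements. They run 5′ to 3′ on the strand of the gene, and capitals mark CHR, E2F and CCAAT words of either strand.
Plk1 (GRCm38.p6, chr7:122159185-122159484, plus strand): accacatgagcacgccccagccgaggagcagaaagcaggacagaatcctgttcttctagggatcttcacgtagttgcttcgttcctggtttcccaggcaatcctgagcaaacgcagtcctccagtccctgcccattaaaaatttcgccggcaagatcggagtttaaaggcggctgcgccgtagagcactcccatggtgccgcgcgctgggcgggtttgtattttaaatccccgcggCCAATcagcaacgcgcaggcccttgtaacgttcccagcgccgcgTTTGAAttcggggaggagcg
Ccnb2 (GRCm38.p6, chr9:70421505-70421804, minus strand): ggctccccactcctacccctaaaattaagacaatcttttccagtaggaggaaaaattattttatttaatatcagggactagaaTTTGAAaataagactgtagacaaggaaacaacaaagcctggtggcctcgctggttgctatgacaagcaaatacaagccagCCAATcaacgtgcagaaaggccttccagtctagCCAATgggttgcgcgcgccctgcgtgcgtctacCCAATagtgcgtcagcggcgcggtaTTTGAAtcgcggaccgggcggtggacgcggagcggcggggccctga
Cdc20 (GRCm38.p6, chr4:118437294-118437593, minus strand): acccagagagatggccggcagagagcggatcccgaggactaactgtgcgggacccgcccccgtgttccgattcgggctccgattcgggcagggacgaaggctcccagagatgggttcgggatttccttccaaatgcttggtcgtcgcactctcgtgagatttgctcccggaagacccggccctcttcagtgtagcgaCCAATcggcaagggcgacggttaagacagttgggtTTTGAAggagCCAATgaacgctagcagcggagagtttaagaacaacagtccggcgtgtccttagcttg
Mcm5 (GRCm38.p6, chr8:75109259-75109558, plus strand): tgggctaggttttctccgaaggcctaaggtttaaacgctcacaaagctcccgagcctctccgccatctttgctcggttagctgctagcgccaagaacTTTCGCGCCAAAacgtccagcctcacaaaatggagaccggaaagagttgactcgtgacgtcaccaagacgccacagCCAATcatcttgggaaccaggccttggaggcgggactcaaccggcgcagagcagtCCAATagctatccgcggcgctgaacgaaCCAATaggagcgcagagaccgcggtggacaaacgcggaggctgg
Mcm6 (GRCm38.p6, chr1:128359656-128359955, minus strand): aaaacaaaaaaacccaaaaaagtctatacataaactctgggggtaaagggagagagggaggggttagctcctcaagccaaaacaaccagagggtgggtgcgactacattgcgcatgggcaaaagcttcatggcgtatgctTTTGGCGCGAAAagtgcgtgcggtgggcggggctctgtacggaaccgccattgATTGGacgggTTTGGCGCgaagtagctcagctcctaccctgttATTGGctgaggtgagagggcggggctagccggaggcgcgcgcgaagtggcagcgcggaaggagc
Cdc6 (GRCm38.p6, chr11:98907901-98908200, plus strand): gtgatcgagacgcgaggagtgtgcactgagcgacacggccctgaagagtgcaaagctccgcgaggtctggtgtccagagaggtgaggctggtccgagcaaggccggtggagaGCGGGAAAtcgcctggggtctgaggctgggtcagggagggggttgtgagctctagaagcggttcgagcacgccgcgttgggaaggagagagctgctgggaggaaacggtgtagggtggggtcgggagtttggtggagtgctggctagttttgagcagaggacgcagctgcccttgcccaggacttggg

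Plk1 held a CCAAT box 14 bases before the start and the CHR word 31 bases after it. Ccnb2 had 3 CCAAT boxes, at 87, 54 and 21 bases before the start, and CHR words 167 bases before it and at base 5 after it. In Mcm5 and in Mcm6, a pair of E2F words on opposite strands overlapped each other and so appear as 1 run of capitals. Cdc6 had 1 E2F word, 138 bases before the start, and neither of the other motifs. All distances count from the RefSeq start, which is not the start of the gene positions given with the values, taken from GENCODE. The RefSeq start lies 60 bases upstream of the GENCODE start in Mcm5 and 41 upstream in Mcm6, so that both windows end close to or before the GENCODE start. In Cdc6 it lies 350 bases downstream, so that this window lies within the GENCODE gene, and in Plk1, Ccnb2 and Cdc20 the starts are 4 to 9 bases apart. A match is a description of letters, not a bound site, and no match says only that these letters are not in this window.

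Counts were reads per gene and library, and levels are given as CPM, the common scale of counts by library size, here gene reads with TMM scaling. Gene reads per library ran from 7996454 to 30321152, and a member had 5 reads (Aurkb) to 2724 reads (Top2a) in a library with a median of 262. Only 1 of the 720 member counts was under 10 reads. In all 10 groups the replicate libraries lay farther apart than counting noise allows. In 2 libraries, NIP at 36 h replicate 1 and NIL after 36 h of CPA replicate 2, the ribosomal precursor Rn45s took 38.6% and 38.3% of gene reads, against 5.18% to 20.4% in the other 18, and results are also given without them where it matters. The labels were checked against the factors of each line: Phox2a was at 56.9 to 322 CPM in NIP, against 0.0839 to 3.31 CPM in NIL, and Lhx3 at 0 to 0.326 CPM in NIP, against 115 to 166 CPM in NIL. Isl1, common to both, was at 120 to 186 CPM in NIP, against 87.6 to 249 CPM in NIL. Of the transmitter genes of motor neurons, the vesicle transporter Slc18a3 was at 90.0 to 196 CPM in NIP, against 59.2 to 392 CPM in NIL, and choline acetyltransferase Chat at 5.76 to 10.1 CPM in NIP, against 6.03 to 34.8 CPM in NIL.

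All 36 members were lower in NIP than in NIL. In the mean over the 5 conditions every member passed edgeR's quasi-likelihood test with Benjamini-Hochberg adjustment over 14792 genes at an adjusted p under 0.05, where 24.0% of all genes were called lower and 25.5% higher. The median log2 difference, NIP minus NIL, was -2.05 over the 36 members and 0.01 over all genes. Mitosis genes had a median of -2.14 (from -2.44 to -1.42) and replication genes a median of -1.52 (from -2.55 to -0.67). The summed level of the 36 members was 362 to 541 CPM in the 5 NIP libraries of replicate 2 and 207 to 348 CPM in those of replicate 1, against 1573 to 1791 and 624 to 1138 CPM in the NIL libraries of replicates 2 and 1. In bulk samples, fewer cells of a type and less RNA per cell cannot be told apart. All 36 were also lower in each of the 10 pairs of NIP and NIL libraries with the same condition and replicate number, with pair medians between -3.18 and -1.16. Libraries of a line with the same replicate number shared their deviations (median r 0.654 between groups), and each line had 2 such sets. The p-values and pair counts of the line difference therefore do not cover further replicates.

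Mcm5 and Mcm2 are subunits of the replicative helicase. In NIP, Mcm5 had 15.7 CPM at 0 h, 13.0 after 12 h of CPA, 9.99 untreated at 12 h, 17.4 after 36 h of CPA and 11.3 untreated at 36 h in replicate 2, and 10.6, 6.19, 7.23, 4.27 and 6.44 CPM in the same order in replicate 1. In NIL, Mcm5 had 73.7 CPM at 0 h, 54.0 after 12 h of CPA, 69.6 untreated at 12 h, 68.9 after 36 h of CPA and 55.1 untreated at 36 h in replicate 2, and 22.8, 24.5, 21.4, 38.7 and 20.1 CPM in the same order in replicate 1. Every NIP library was below every NIL library, and replicate 2 was the higher one in each group. The log2 difference of Mcm5 (GRCm38, chr8:75109569-75128439, plus strand) was -2.13 ± 0.36 (SE), adjusted p = 2.87e-04 in edgeR. In NIP, Mcm2 had 30.9 CPM at 0 h, 20.4 after 12 h of CPA, 24.4 untreated at 12 h, 36.2 after 36 h of CPA and 19.5 untreated at 36 h in replicate 2, and 28.9, 15.9, 19.6, 12.9 and 12.2 CPM in the same order in replicate 1. In NIL, Mcm2 had 80.1 CPM at 0 h, 68.9 after 12 h of CPA, 76.2 untreated at 12 h, 86.7 after 36 h of CPA and 69.6 untreated at 36 h in replicate 2, and 29.2, 31.0, 27.7, 49.6 and 25.0 CPM in the same order in replicate 1. Here the lines overlapped: both NIP libraries at 0 h, and NIP after 36 h of CPA in replicate 2, lay above the lowest NIL library. Mcm2 (chr6:88883474-88898780, minus strand) differed by -1.32 ± 0.30, edgeR adjusted p = 0.00244.

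Rrm2 is the small subunit of ribonucleotide reductase and is made mainly in S phase, while the clamp Pcna also serves DNA repair. In NIP, Rrm2 had 14.3 CPM at 0 h, 10.7 after 12 h of CPA, 9.48 untreated at 12 h, 12.1 after 36 h of CPA and 7.89 untreated at 36 h in replicate 2, and 6.08, 3.46, 5.65, 2.67 and 3.34 CPM in the same order in replicate 1. In NIL, Rrm2 had 69.9 CPM at 0 h, 59.0 after 12 h of CPA, 71.3 untreated at 12 h, 56.8 after 36 h of CPA and 48.1 untreated at 36 h in replicate 2, and 27.0, 25.1, 24.8, 37.9 and 21.1 CPM in the same order in replicate 1. The lines did not overlap, and Rrm2 (chr12:24708241-24714146, plus strand) had the largest difference of all 36 members, -2.55 ± 0.38 on the log2 scale, edgeR adjusted p = 1.10e-04. In NIP, Pcna had 40.7 CPM at 0 h, 38.1 after 12 h of CPA, 38.0 untreated at 12 h, 36.2 after 36 h of CPA and 28.2 untreated at 36 h in replicate 2, and 36.8, 35.6, 29.7, 35.8 and 29.0 CPM in the same order in replicate 1. In NIL, Pcna had 81.6 CPM at 0 h, 65.5 after 12 h of CPA, 81.6 untreated at 12 h, 77.3 after 36 h of CPA and 65.7 untreated at 36 h in replicate 2, and 53.3, 47.3, 44.0, 58.2 and 45.7 CPM in the same order in replicate 1. The lines did not overlap for Pcna either, but they lay closer. Its difference (chr2:132249162-132253314, minus strand) was -0.83 ± 0.13, edgeR adjusted p = 1.62e-04, and among members only Rrm1, the large subunit of ribonucleotide reductase, had a smaller one at -0.67 ± 0.13.

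Ccne1 encodes cyclin E1, the partner of Cdk2 at the start of S phase. In NIP, Ccne1 had 9.84 CPM at 0 h, 12.3 after 12 h of CPA, 9.52 untreated at 12 h, 9.43 after 36 h of CPA and 7.16 untreated at 36 h in replicate 2, and 10.5, 11.7, 7.52, 7.83 and 6.20 CPM in the same order in replicate 1. In NIL, Ccne1 had 23.4 CPM at 0 h, 19.7 after 12 h of CPA, 21.0 untreated at 12 h, 16.8 after 36 h of CPA and 20.0 untreated at 36 h in replicate 2, and 18.7, 16.7, 14.7, 13.9 and 16.4 CPM in the same order in replicate 1. The lines did not overlap, replicates lay close together, and Ccne1 (chr7:38097984-38107534, minus strand) had the smallest p of all members, with a difference of -0.99 ± 0.10 and an edgeR adjusted p of 2.65e-06. E2f1 is a transcription factor of S phase genes and Cdt1 a helicase loader. In NIP, E2f1 had 5.24 CPM at 0 h, 2.94 after 12 h of CPA, 3.53 untreated at 12 h, 6.20 after 36 h of CPA and 2.61 untreated at 36 h in replicate 2, and 3.69, 3.22, 2.56, 3.26 and 2.86 CPM in the same order in replicate 1. In NIL, E2f1 had 13.6 CPM at 0 h, 9.39 after 12 h of CPA, 12.5 untreated at 12 h, 15.4 after 36 h of CPA and 12.5 untreated at 36 h in replicate 2, and 4.75, 5.62, 3.67, 10.8 and 4.42 CPM in the same order in replicate 1. Lowest among the NIL libraries was untreated 12 h of replicate 1, which lay below 3 NIP libraries, so the lines overlapped. The difference of E2f1 (chr2:154559407-154569892, minus strand) was -1.36 ± 0.29, edgeR adjusted p = 0.00154. In NIP, Cdt1 had 10.7 CPM at 0 h, 14.1 after 12 h of CPA, 6.55 untreated at 12 h, 11.1 after 36 h of CPA and 5.83 untreated at 36 h in replicate 2, and 7.71, 8.40, 3.94, 4.66 and 2.98 CPM in the same order in replicate 1. In NIL, Cdt1 had 29.1 CPM at 0 h, 33.0 after 12 h of CPA, 27.2 untreated at 12 h, 44.4 after 36 h of CPA and 34.5 untreated at 36 h in replicate 2, and 8.35, 11.6, 7.10, 20.0 and 7.20 CPM in the same order in replicate 1. Both NIP libraries under CPA at 12 h exceeded the lowest NIL libraries, and the lines overlapped. Cdt1 (chr8:122568015-122573554, plus strand) differed by -1.58 ± 0.39, edgeR adjusted p = 0.00423, the largest adjusted p of the 36.

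**Figure D1:**
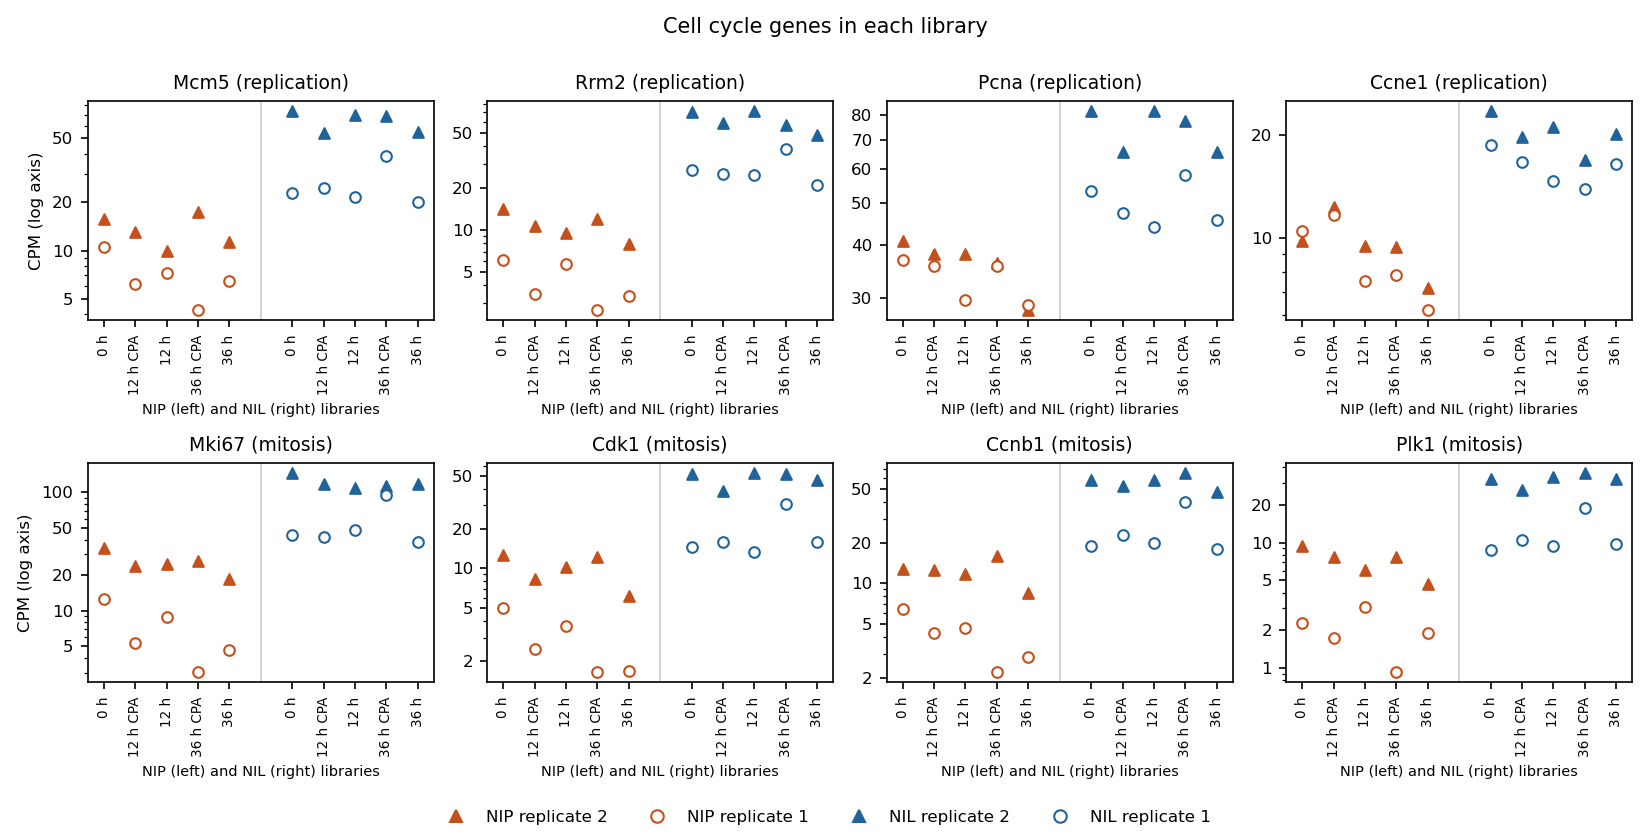
CPM (log axis) of 4 replication genes (top) and 4 mitosis genes (bottom) in each of 20 libraries, NIP left of NIL in every panel, with the conditions in order of time and CPA left of untreated. Triangles are replicate 2 and open circles replicate 1; NIP lies below NIL within each replicate, and the replicates of a line lie apart for mitosis genes.

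Mki67 encodes the Ki-67 protein that marks cycling cells. In NIP, Mki67 had 33.9 CPM at 0 h, 23.9 after 12 h of CPA, 25.0 untreated at 12 h, 26.4 after 36 h of CPA and 18.6 untreated at 36 h in replicate 2, and 12.5, 5.37, 8.81, 3.05 and 4.65 CPM in the same order in replicate 1. In NIL, Mki67 had 145 CPM at 0 h, 117 after 12 h of CPA, 109.5 untreated at 12 h, 113 after 36 h of CPA and 117 untreated at 36 h in replicate 2, and 43.4, 41.8, 48.4, 95.7 and 38.3 CPM in the same order in replicate 1. No NIP library reached the lowest NIL library. The difference of Mki67 (chr7:135689784-135716361, minus strand) was -2.44 ± 0.49, edgeR adjusted p = 0.00104, and was the largest difference among mitosis genes. Top2a untangles DNA before chromosomes separate. In NIP, Top2a had 42.1 CPM at 0 h, 35.4 after 12 h of CPA, 36.9 untreated at 12 h, 33.2 after 36 h of CPA and 26.5 untreated at 36 h in replicate 2, and 17.7, 13.0, 14.4, 8.25 and 10.1 CPM in the same order in replicate 1. In NIL, Top2a had 139 CPM at 0 h, 169 after 12 h of CPA, 156 untreated at 12 h, 144 after 36 h of CPA and 125 untreated at 36 h in replicate 2, and 53.4, 58.2, 57.9, 90.2 and 46.3 CPM in the same order in replicate 1. Again the lines did not overlap, although NIP replicate 2 came close to NIL replicate 1. Top2a (chr11:98992943-99024189, minus strand) differed by -2.14 ± 0.40, edgeR adjusted p = 6.35e-04.

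Cdk1 and its partner cyclin B1 (Ccnb1) form the kinase that starts mitosis. In NIP, Cdk1 had 12.6 CPM at 0 h, 8.26 after 12 h of CPA, 10.2 untreated at 12 h, 12.2 after 36 h of CPA and 6.19 untreated at 36 h in replicate 2, and 5.05, 2.45, 3.65, 1.65 and 1.67 CPM in the same order in replicate 1. In NIL, Cdk1 had 52.1 CPM at 0 h, 38.2 after 12 h of CPA, 52.4 untreated at 12 h, 51.4 after 36 h of CPA and 46.8 untreated at 36 h in replicate 2, and 14.4, 15.8, 13.4, 30.7 and 15.8 CPM in the same order in replicate 1. NIP libraries of replicate 1 were the lowest, and the lines did not overlap. Cdk1 (chr10:69335146-69352938, minus strand) differed by -2.39 ± 0.48, edgeR adjusted p = 0.00107. In NIP, Ccnb1 had 12.6 CPM at 0 h, 12.5 after 12 h of CPA, 11.7 untreated at 12 h, 15.8 after 36 h of CPA and 8.39 untreated at 36 h in replicate 2, and 6.40, 4.27, 4.63, 2.20 and 2.86 CPM in the same order in replicate 1. In NIL, Ccnb1 had 58.1 CPM at 0 h, 52.7 after 12 h of CPA, 58.6 untreated at 12 h, 65.2 after 36 h of CPA and 47.3 untreated at 36 h in replicate 2, and 18.7, 22.7, 19.7, 40.3 and 17.9 CPM in the same order in replicate 1. The order of the libraries was much the same as for Cdk1, without overlap between lines. Ccnb1 (chr13:100778650-100786570, minus strand) differed by -2.29 ± 0.43, edgeR adjusted p = 6.77e-04.

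Plk1 is a kinase of the spindle poles and centromeres, Birc5 (survivin) a subunit of the chromosomal passenger complex, and Cdc20 the activator of the anaphase-promoting complex. In NIP, Plk1 had 9.39 CPM at 0 h, 7.68 after 12 h of CPA, 6.04 untreated at 12 h, 7.68 after 36 h of CPA and 4.72 untreated at 36 h in replicate 2, and 2.28, 1.73, 3.06, 0.931 and 1.91 CPM in the same order in replicate 1. In NIL, Plk1 had 32.1 CPM at 0 h, 26.4 after 12 h of CPA, 33.2 untreated at 12 h, 35.8 after 36 h of CPA and 32.3 untreated at 36 h in replicate 2, and 8.70, 10.5, 9.41, 19.1 and 9.74 CPM in the same order in replicate 1. The highest NIP library, 0 h of replicate 2, lay above the lowest NIL library, 0 h of replicate 1. In NIP, Birc5 had 8.12 CPM at 0 h, 6.67 after 12 h of CPA, 5.76 untreated at 12 h, 8.35 after 36 h of CPA and 4.72 untreated at 36 h in replicate 2, and 3.47, 1.92, 2.50, 1.23 and 1.55 CPM in the same order in replicate 1. In NIL, Birc5 had 32.4 CPM at 0 h, 23.4 after 12 h of CPA, 32.4 untreated at 12 h, 32.9 after 36 h of CPA and 24.6 untreated at 36 h in replicate 2, and 9.53, 10.9, 9.44, 18.7 and 7.96 CPM in the same order in replicate 1. Its overlap was as small, with 2 NIP libraries of replicate 2 above the lowest NIL library. In NIP, Cdc20 had 12.6 CPM at 0 h, 12.5 after 12 h of CPA, 9.43 untreated at 12 h, 17.5 after 36 h of CPA and 7.98 untreated at 36 h in replicate 2, and 6.40, 3.94, 4.24, 2.33 and 2.50 CPM in the same order in replicate 1. In NIL, Cdc20 had 51.9 CPM at 0 h, 46.5 after 12 h of CPA, 53.8 untreated at 12 h, 67.5 after 36 h of CPA and 55.1 untreated at 36 h in replicate 2, and 14.5, 18.1, 16.0, 29.9 and 15.0 CPM in the same order in replicate 1. For Cdc20 1 NIP library, 36 h of CPA in replicate 2, lay among NIL libraries of replicate 1. Their log2 differences were -2.26 ± 0.49 for Plk1 (chr7:122159439-122169873, plus strand), -2.18 ± 0.45 for Birc5 (chr11:117849251-117855743, plus strand) and -2.22 ± 0.47 for Cdc20 (chr4:118432901-118437352, minus strand). The edgeR adjusted p was 0.00199 for Plk1, 0.00135 for Birc5 and 0.00162 for Cdc20.

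The other 22 members followed the same direction. Among helicase genes the log2 differences were -2.38 ± 0.50 (Mcm3), -1.20 ± 0.19 (Mcm4), -1.73 ± 0.26 (Mcm6) and -1.53 ± 0.21 (Mcm7). The helicase loader Cdc6 differed by -2.18 ± 0.41, cyclin E2 (Ccne2) by -1.09 ± 0.19 and thymidylate synthase (Tyms) by -1.57 ± 0.23. Checkpoint kinase Bub1 had the smallest adjusted p of the mitosis genes, 5.42e-05 in edgeR, with a difference of -1.90 ± 0.26, and its relative Bub1b differed by -2.29 ± 0.50. Spindle motors differed by -2.06 ± 0.38 (Kif11), -2.04 ± 0.39 (Kif20a) and -2.12 ± 0.32 (Kif23), and the kinetochore proteins by -1.76 ± 0.30 (Cenpe) and -2.12 ± 0.39 (Cenpf). The smallest differences among mitosis genes were those of the passenger subunit Cdca8 (-1.42 ± 0.31), the mitotic transcription factor Foxm1 (-1.47 ± 0.32) and the spindle kinase Aurka (-1.60 ± 0.36). Between them and the largest lay Tpx2, an activator of Aurka (-1.69 ± 0.29), Aurkb, the kinase of the passenger complex (-2.15 ± 0.52), cyclin A2 (-2.17 ± 0.46) and cyclin B2 (-2.28 ± 0.44).

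When the 10 NIP libraries were set against the 10 NIL libraries, 20 of 36 members were wholly lower with no overlap, 7 of 15 replication and 13 of 21 mitosis genes, against 3.62% of all genes tested. Within replicate 2 all 36 were wholly lower, against 11.7% of all genes. Within replicate 1 this held for 32, against 11.9%, and the exceptions were the replication genes Ccne2, Cdt1, Mcm2 and E2f1. The heatmap shows the same 4 blocks for most members, lowest in NIP replicate 1 and highest in NIL replicate 2. For Ccne2 the median of NIP replicate 2 (2.61 CPM) lay below that of NIP replicate 1 (3.58 CPM).

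**Figure D2:**
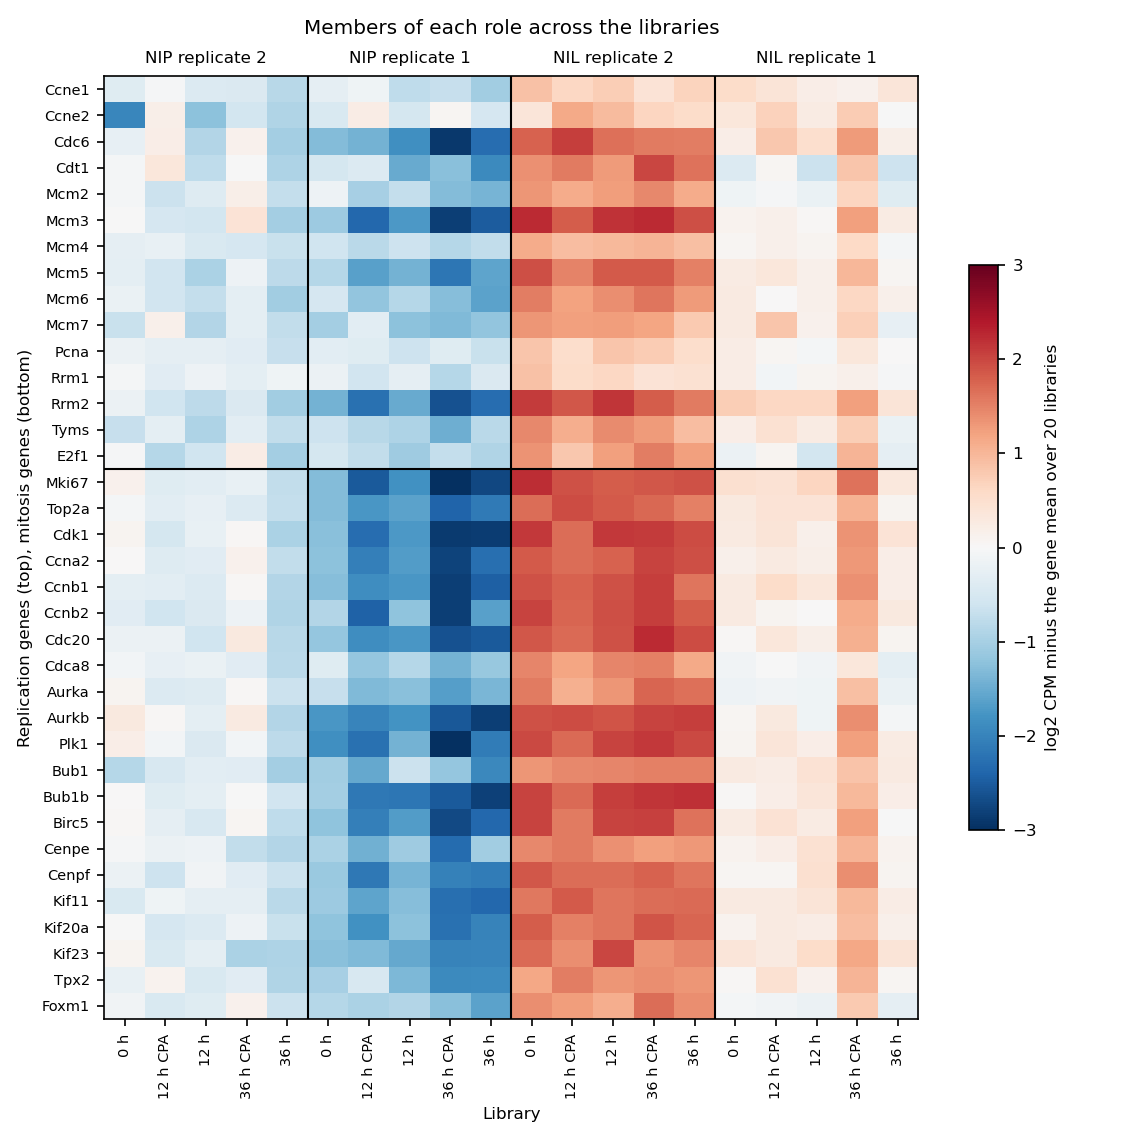
Heatmap of log2 CPM minus the mean of the gene over 20 libraries, replication genes above and mitosis genes below the black line, with NIP libraries left of NIL libraries and replicate 2 left of replicate 1. For most members NIL replicate 2 is the highest block and NIP replicate 1 the lowest. NIL after 36 h of CPA in replicate 1 stands above the other NIL libraries of its replicate for most members, but not for Ccne1.

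Levels per kilobase of exon gave a different order of genes in the lines. Pcna was first in both, with a mean of 14.5 CPM per kb in NIP and 25.8 CPM per kb in NIL. Ccne1 ranked 10th in NIP and 23rd in NIL in replicate 2 (3.63 and 7.58 CPM per kb), but 4th in NIP and 9th in NIL in replicate 1 (3.29 and 6.03 CPM per kb). Rrm2 ranked 5th in NIP and 3rd in NIL in replicate 2, and 13th in NIP and 4th in NIL in replicate 1. Cenpf, a large kinetochore protein, had the lowest mean in both at 0.412 and 1.79 CPM per kb in NIP and NIL. These ranks carry no test.

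Single conditions had 2 libraries per line, and the replicate numbers paired libraries across groups, so both fits are given. Without the replicate number in the model, 2 members were called lower in NIP at 0 h (Ccne1 and Mcm7, against 4.61% of all genes), 4 untreated at 12 h (Ccne1, Ccne2, Mcm7 and Tyms, 4.28%) and 3 untreated at 36 h (Ccne1, Mcm6 and Bub1, 4.56%). With the number as a block, 33 members were called lower at 0 h (12.1% of all genes), 36 at 12 h (13.5%) and 35 at 36 h (14.7%). After 12 h of CPA the counts were 0 without the block (3.39% of all genes) and 34 with it (12.5%), and 21 members had an unadjusted p under 0.05 without it; DESeq2 called 5. After 36 h of CPA they were 11 without the block (6.56%) and 35 with it (18.2%). The 11 were Ccne1, Mcm4, Mcm6, Mcm7, Pcna, Rrm2, Tyms, Bub1, Cenpe, Kif23 and Tpx2. Without NIP 36 h CPA replicate 1, or without NIL 36 h CPA replicate 2, 0 were called after 36 h of CPA, and 22 without NIP 36 h CPA replicate 2. As an example, Ccne1 averaged 10.2 ± 0.487 CPM in NIP and 21.0 ± 3.34 CPM in NIL at 0 h, and 6.68 ± 0.678 CPM in NIP and 18.2 ± 2.58 CPM in NIL untreated at 36 h (SD, n = 2 each). For Mki67 the means were 23.2 ± 15.1 CPM in NIP and 94.1 ± 71.7 CPM in NIL at 0 h, where the spread between replicates of a line was wide.

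Genes of the same pathways outside the 36 gave a like count. Of 24 other replication genes, 23 were called lower in NIP and 0 higher, led by Orc6 of the origin recognition complex (-0.69 ± 0.08), DNA ligase Lig1 (-1.09 ± 0.13), the primase subunit Prim1 (-1.36 ± 0.17) and the chromatin remodeller Hells (-1.50 ± 0.20). Of 24 other mitosis genes, 23 were lower and 1 higher. Lower were the checkpoint kinase Ttk (-1.92 ± 0.27) and Ect2, which starts cytokinesis (-2.02 ± 0.32). The gene that was higher was Prc1, a cross-linker of spindle microtubules. In NIP, Prc1 had 123 CPM at 0 h, 164 after 12 h of CPA, 138 untreated at 12 h, 89.5 after 36 h of CPA and 174 untreated at 36 h in replicate 2, and 105, 122, 138, 127 and 227 CPM in the same order in replicate 1. In NIL, Prc1 had 47.9 CPM at 0 h, 48.8 after 12 h of CPA, 51.8 untreated at 12 h, 50.1 after 36 h of CPA and 48.3 untreated at 36 h in replicate 2, and 17.4, 20.9, 21.8, 38.4 and 24.7 CPM in the same order in replicate 1. Every NIP library stood above every NIL library, with a difference of 1.91 ± 0.24 and an edgeR adjusted p of 1.90e-05.

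Upstream regulators moved both ways, where 24.0% of all genes were lower in NIP and 25.5% higher. Of 21 G1 cyclins, kinases and E2F or RB family genes, 14 were lower in NIP and 2 higher. The transcription factor Myc was higher by 1.42 ± 0.15 and Mycn, its neural relative, differed by -1.59 ± 0.18 in the opposite direction. The pocket protein Rbl1 differed by -2.01 ± 0.23, Ccnd2 by -1.95 ± 0.25 and Ccnd3 by -1.54 ± 0.30, while Ccnd1 was at 0.26 ± 0.23 with an edgeR adjusted p of 0.363. Of 16 brakes on the cycle, 3 were higher and 7 lower. Among the p53-linked and stress-linked brakes, Gadd45g was higher by 1.64 ± 0.14 and Cdkn1a (p21) by 0.38 ± 0.13, whereas Gadd45b differed by -1.92 ± 0.32. The kinase inhibitor Cdkn1c (p57) differed by -0.92 ± 0.19, and Cdkn1b (p27) by -0.04 ± 0.08, edgeR adjusted p = 0.732.

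Markers of other cell types differed between the lines to unlike degrees, where 24.0% of all genes were lower in NIP and 25.5% higher. Of 12 pluripotent stem cell markers, 10 were lower in NIP, and their summed level was 227 to 358 and 129 to 264 CPM in NIP replicates 2 and 1, against 597 to 986 and 197 to 372 CPM in NIL replicates 2 and 1. All 12 endoderm markers were lower, with summed levels of 2921 to 8193 and 432 to 983 CPM in NIP, against 10450 to 32270 and 2908 to 15150 CPM in NIL, in the same order of replicates. Of 10 mesenchyme markers 8 could be tested and 7 were lower, with sums of 44.9 to 95.8 and 10.3 to 21.2 CPM in NIP, against 171 to 346 and 67.4 to 233 CPM in NIL. Of the defining matrix genes, Dcn was at 0 in all 10 NIP libraries and in NIL replicate 2, and Lum in NIP replicate 2 and in all 10 NIL libraries. Of 12 neural progenitor markers 8 were lower and 2 higher, but their sums ran the other way, at 593 to 1365 and 628 to 1325 CPM in NIP, against 523 to 1036 and 481 to 818 CPM in NIL, with overlap. Of 12 postmitotic neuron markers 1 was lower and 4 higher, with neuron sums of 6057 to 11320 and 8207 to 13390 CPM in NIP, against 2961 to 8389 and 6163 to 13070 CPM in NIL. As a share of their list, the neuron markers called lower fell below the 24.0% of all genes, and those called higher lay above the 25.5%. The share higher rests on 4 markers. The part of such cells in the level of the cell cycle genes was not tested.

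Cell cycle transcripts stood at higher levels in replicate 2 than in replicate 1. In edgeR with the replicate number in the model, 35 of 36 members were higher in replicate 2, against 24.7% of all genes higher and 24.4% lower. The median log2 difference, replicate 2 minus replicate 1, was 1.25 over the members, 0.82 over replication and 1.38 over mitosis genes. The one member that did not pass was Ccne2, at -0.09 ± 0.17 and an edgeR adjusted p of 0.692. Largest were Aurkb (1.81 ± 0.16), Bub1b (1.73 ± 0.12) and Mcm3 (1.72 ± 0.17). The smallest adjusted p in edgeR were those of Top2a (9.03e-08), Bub1b (1.18e-07) and the spindle motor Kif20a (1.65e-07). Because all 10 groups share the same 2 replicate numbers, these p-values measure how steady the difference was over groups, not over further replicates. Rrm2, Mcm5 and Cdt1 were higher by 1.27 ± 0.12, 1.19 ± 0.14 and 1.31 ± 0.16. Aurkb had 5.15, 4.32, 3.44, 5.05, 2.29 CPM in NIP replicate 2, against 1.25, 1.06, 1.22, 0.719, 0.596 CPM in NIP replicate 1, from 0 h over 12 h with CPA and untreated to 36 h with CPA and untreated. In NIL it had 15.8, 16.2, 15.4, 17.1, 17.7 CPM in replicate 2, against 4.40, 5.12, 3.81, 11.0, 4.05 CPM in replicate 1. Replicate 2 was the higher one in each of the 10 pairs. This held for 31 of the 36 members, and the others were Ccne1, Ccne2, Pcna, Tyms and E2f1.

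The difference was present in each line fitted alone, with 31 members called higher among NIP libraries (13.2% of genes) and 35 among NIL libraries (24.7%). In NIP, 17 of 21 mitosis genes and 3 of 15 replication genes were wholly higher in replicate 2 with no overlap, against 4.22% of all genes. In NIL these were all 21 mitosis genes and 11 of 15 replication genes, against 7.09%. The difference of replicate 2 minus replicate 1 was itself called lower in NIP than in NIL for 6 members in edgeR, against 3.83% of all genes: the replication genes Cdt1, Mcm4, Mcm6, Pcna and Ccne2, and Cdca8 of the passenger complex. Cdt1 differed between replicates by 0.83 ± 0.14 in NIP and by 1.72 ± 0.14 in NIL (log2 ± SE). Ccne2 differed by -0.58 ± 0.20 in NIP and by 0.32 ± 0.15 in NIL, opposite in sign, though neither passed in its own line. Without NIP 0 h replicate 1, or without NIP 0 h replicate 2, 0 were called, and 10 without either replicate of NIP 36 h CPA.

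**Figure D3:**
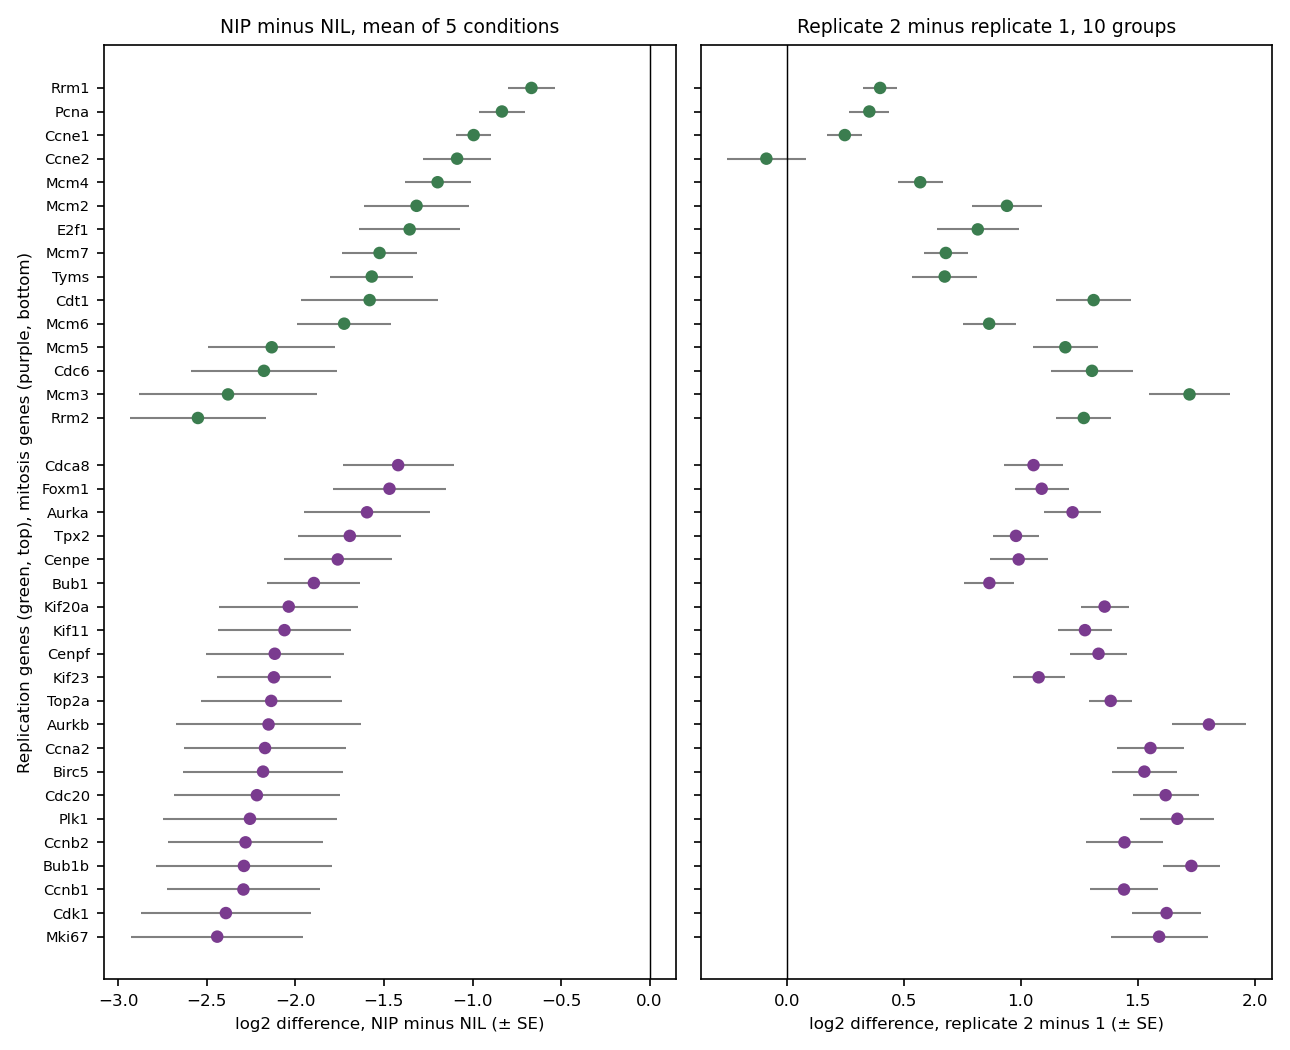
Log2 difference with its SE for each member, NIP minus NIL over 5 conditions (left) and replicate 2 minus replicate 1 over 10 groups (right), replication genes in green above mitosis genes in purple, each ordered by the line difference. All 36 lie below 0 on the left, and all but Ccne2 lie above 0 on the right.

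Other lists moved between the replicates too, where 24.7% of all genes were higher in replicate 2 and 24.4% lower. Of 24 other replication genes 19 were higher in replicate 2, and of 24 other mitosis genes 22, with Mcm10 at 1.65 ± 0.15 and the cytokinesis gene Anln at 1.34 ± 0.10. Among G1 regulators 12 of 21 were higher and 1 lower, led by Mybl2, an activator of mitotic genes, at 2.22 ± 0.18 and Cdk2 at 1.70 ± 0.17. Ccnd2 and Ccnd3 were higher by 0.76 ± 0.12 and 0.96 ± 0.13, and Ccnd1 was at 0.37 ± 0.21 with an edgeR adjusted p of 0.155. Among brakes 10 of 16 were higher and 2 lower, with Cdkn1a at 0.37 ± 0.07, Cdkn1b at -0.19 ± 0.07 and Cdkn1c, which did not pass, at 0.33 ± 0.15.

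Of the marker lists, 11 of 12 pluripotent genes and 11 of 12 endoderm genes were higher in replicate 2, against 24.7% of all genes, and 1 endoderm gene was lower. The endoderm factor Sox7 was higher by 2.18 ± 0.20 and the progenitor factor Sox2 by 2.77 ± 0.22. Of 12 neural progenitor genes 6 were higher, and Sox2 had the highest value of that list. The list median was 0.49, against 2.1 for the pluripotent genes. Of 8 mesenchyme genes tested 4 were higher and 1 lower. Of 12 postmitotic neuron markers 11 were lower in replicate 2, with Dcx of young neurons at -0.82 ± 0.12 and neurofilament Nefm at -0.66 ± 0.08, and of 8 motor neuron genes 5 were lower and 1 higher. Their part in the replicate difference of the cell cycle genes was not tested. Libraries of replicate 2 were also shallower, with a median of 13150000 gene reads, against 22570000 in replicate 1, and held more reads that mapped to several places, with a median of 38.6% against 26.6%.

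**Figure D4:**
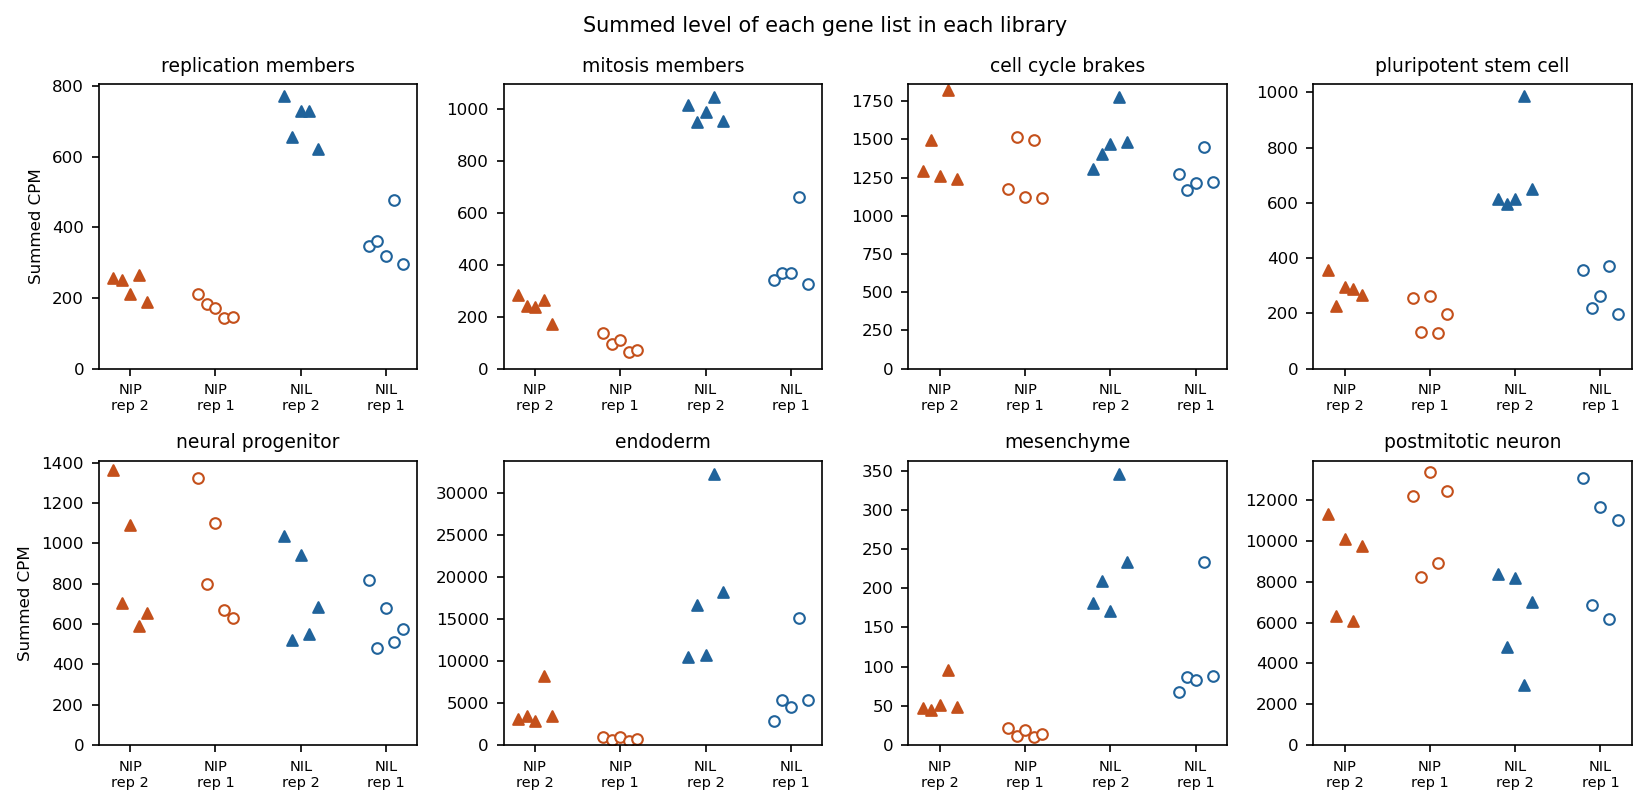
Summed CPM of the replication and mitosis members, of cell cycle brakes and of 5 marker lists in each library, by line and replicate, NIP left of NIL and replicate 2 left of replicate 1, where the points of a column run from 0 h over 12 h CPA, 12 h, 36 h CPA to 36 h. In the member, pluripotent, endoderm and mesenchyme lists NIP replicate 1 reaches the lowest and NIL replicate 2 the highest values, and the postmitotic neuron list has its lowest value in NIL replicate 2.

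Over time without CPA, members tended to lower values in NIP, but few passed the test. At 36 h against 0 h in NIP, 35 of 36 members had a negative difference, with a median of -0.70, and Ccne2 a positive one (0.28 ± 0.44). In edgeR 0 members were called (1 had an unadjusted p under 0.05, and DESeq2 called 0), where 0.602% of all genes were called lower. With the replicate block 6 were called lower, against 4.4% of all genes: Ccne1 (-0.63 ± 0.18), Mcm6 (-1.01 ± 0.27), Cdk1 (-1.24 ± 0.37), Top2a (-0.74 ± 0.21), Bub1b (-1.04 ± 0.31) and Tpx2 (-0.79 ± 0.24). Their adjusted p in that edgeR fit lay between 0.0295 and 0.0496. Without both libraries high in Rn45s, 1 of them being NIP 36 h replicate 1, the blocked fit called 1 member. The pair medians at 36 h against 0 h in NIP were -0.67 in replicate 2 and -0.84 in replicate 1.

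In NIL, the pair medians at 36 h against 0 h were -0.20 in replicate 2 and -0.11 in replicate 1, and edgeR called 0 members without the block (0.027% of all genes in either direction; 0 members under an unadjusted 0.05) and 0 with it (0.94%; 2 members under 0.05). DESeq2 called 0 as well. Over both lines 0 members were called at 36 h (0.399% of all genes lower; 1 member under an unadjusted 0.05; DESeq2 0), and 3 with the block (3.63%): Ccne1, Mcm6 and Rrm2. At 12 h against 0 h over both lines, 0 members were called without the block (0.0% of all genes, and 0 members under an unadjusted 0.05), 0 with it (1 under 0.05) and 0 by DESeq2. The change to 36 h in NIP minus that in NIL had a median of -0.55, and 0 members passed that test in edgeR without the block (0.0% of all genes, 0 members under an unadjusted 0.05) or with it (0.595% of all genes, 10 members under 0.05), or in DESeq2. Of the 36, 18 were below their 0 h library in all 4 pairs at 36 h. The brakes Cdkn1a, Cdkn1b and Cdkn1c were at 0.08 ± 0.20, -0.05 ± 0.13 and -1.02 ± 0.30 at 36 h against 0 h over both lines. None of them passed in edgeR without the block, and with it 3 of 16 brakes were lower. Of 12 neural progenitor markers 2 were lower at 36 h over both lines without the block, Vim (-0.85 ± 0.13) and Fabp7 (-1.80 ± 0.40), and 4 with it. Of 12 postmitotic neuron markers 0 passed without the block and 1 with it. Their part in the values of the members was not tested.

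CPA did not move the members in a way that passed the test without the block. In edgeR 0 members were called in NIP at 12 h (4.71% of all genes in either direction) and 36 h (2.33%), in NIL at 12 h (2.21%) and 36 h (0.98%), and over both lines at 12 h (10.9%) and 36 h (7.38%). Under an unadjusted 0.05 were 2 members in NIP at 12 h, 1 over both lines at 12 h and 0 in the other 4 comparisons, and DESeq2 called 0 in all 6. With the block, 10 members were higher after 36 h of CPA over both lines, against 13.6% of all genes, and 0 lower. They were the replication genes E2f1 (0.79 ± 0.29), Cdt1 (0.84 ± 0.26) and Mcm7 (0.42 ± 0.15) and the mitosis genes Aurkb (0.80 ± 0.26), Cdc20 (0.67 ± 0.23), Ccnb1 (0.66 ± 0.23), Birc5 (0.63 ± 0.23), Foxm1 (0.62 ± 0.18), Bub1 (0.50 ± 0.17) and Tpx2 (0.44 ± 0.16). Their adjusted p in that fit lay between 0.0185 and 0.0486, and without both libraries high in Rn45s 9 members were called. The median over all 36 was 0.39 without the block, and only Rrm1 (-0.11 ± 0.21) and Cenpe (-0.03 ± 0.47) were below 0.

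The 4 pairs of libraries behind this value did not move alike. After 36 h of CPA the median of the members was 0.62 in NIP replicate 2, with 34 of 36 above 0, and -0.13 in NIP replicate 1, with 13 above 0. In NIL it was 0.16 in replicate 2, with 27 above 0, and 0.96 in replicate 1, with 35 above 0. Mki67 averaged 14.7 ± 16.5 CPM with CPA and 11.6 ± 9.88 CPM untreated in NIP at 36 h, and 104 ± 12.2 CPM with CPA and 77.6 ± 55.6 CPM untreated in NIL (SD, n = 2 each). In both lines the SD of the untreated libraries exceeded the difference. In single lines the blocked fit called 4 members higher in NIL at 36 h (Mcm7, Birc5, Cenpf and Top2a, against 7.25% of all genes) and 0 in NIP at 36 h (10.3% in either direction, 3 members under an unadjusted 0.05).

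**Figure D5:**
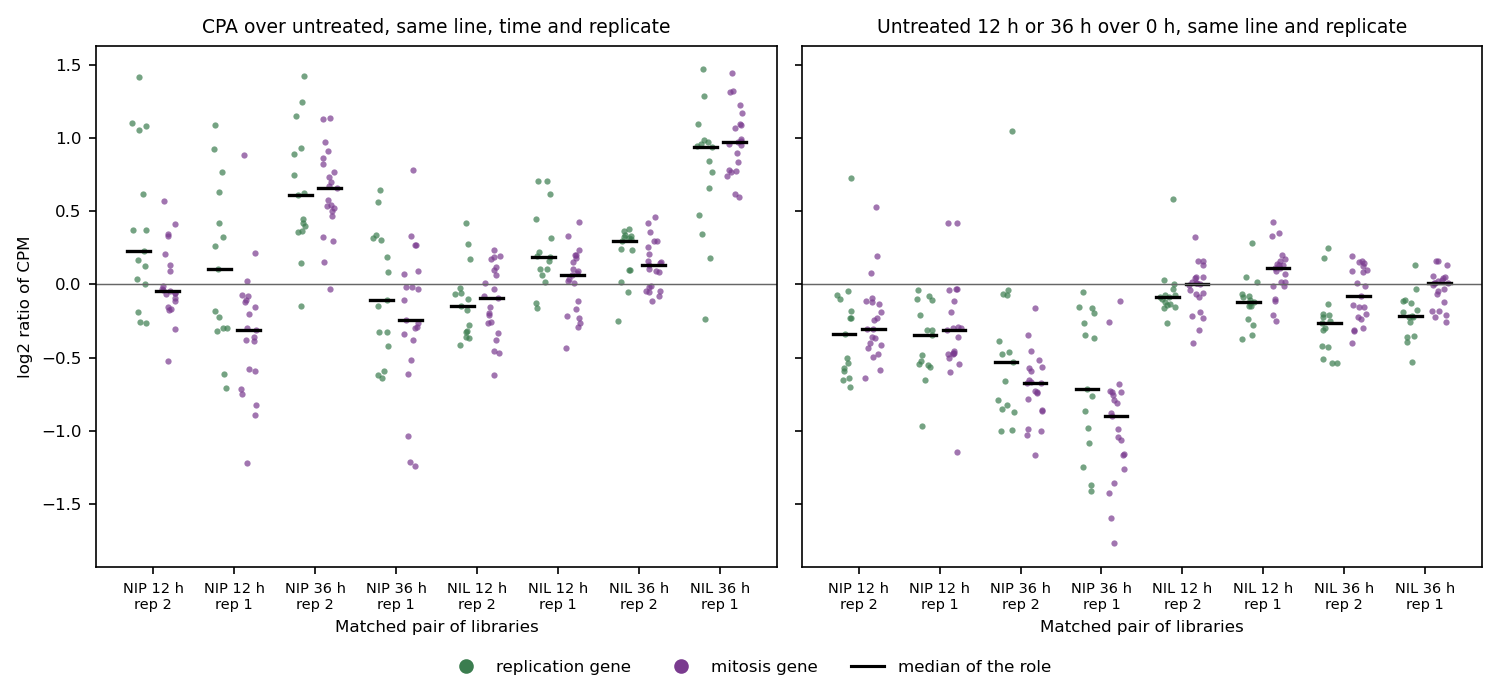
Log2 ratio of CPM for each member in matched pairs of libraries, CPA over untreated (left) and untreated 12 h or 36 h over 0 h (right), with replication genes in green, mitosis genes in purple and black bars at the median of each role. At 36 h of CPA, NIL replicate 1 and NIP replicate 2 lie above 0 and the other pairs near it; at 36 h against 0 h, both NIP pairs lie below 0.

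At 12 h of CPA the blocked fit called 3 members higher in NIP (Ccne1, Mcm7 and Tpx2, against 7.54% of all genes), 0 in NIL (7.94% in either direction, 0 members under an unadjusted 0.05), and 3 over both lines (Mcm7, Cdt1 and Tpx2, against 11.8%). In NIP 3 of 36 is close to the share of all genes, and for both lines together it is below that share. Mcm7 had 37.7 and 27.2 CPM after 12 h of CPA, against 18.2 and 14.3 CPM untreated, in NIP replicates 2 and 1. In NIL it had 78.5 and 60.1 CPM with CPA, against 79.9 and 36.8 CPM untreated. CPA libraries were thus higher in 3 of the 4 pairs. The CPA difference in NIP minus that in NIL passed for 0 members at 12 h and at 36 h without the block (0.0% of all genes at both times, 0 members under an unadjusted 0.05). With the block it passed for 0 at 12 h (0.0%, 1 member under 0.05) and 0 at 36 h (0.128%, 2 members under 0.05), and DESeq2 called 0 at both times.

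Single brakes and D-type cyclins passed under CPA without the block, and more brakes and G1 regulators passed with it, as did more of all genes. Gadd45a, a growth arrest gene induced by stress, had 67.8 and 58.2 CPM after 12 h of CPA, against 13.5 and 8.90 CPM untreated, in NIP replicates 2 and 1. In NIL it had 31.8 and 30.9 CPM with CPA, against 13.9 and 11.1 CPM untreated. The groups did not overlap in either line, and over both lines Gadd45a was higher by 1.91 ± 0.17 at 12 h and 1.49 ± 0.17 at 36 h, edgeR adjusted p = 1.50e-05 and 4.08e-04. Over both lines without the block, 2 of 16 brakes were higher at 36 h and 0 lower, the other being Gadd45g (1.50 ± 0.22). At 12 h 1 was higher and Cdkn2d (p19) was lower (-0.59 ± 0.14). Of all genes, 7.38% were called in either direction at 36 h, with 484 of 14792 higher. At 12 h 10.9% were called in either direction, and the share of the brakes called is near that. With the block 6 brakes were higher and 1 lower at 36 h, and 5 higher and 1 lower at 12 h. The shares of all genes higher with it were 13.6% and 11.8%, in the same order. Cdkn1a was at 0.07 ± 0.20 at 12 h and 0.60 ± 0.20 at 36 h, where its edgeR adjusted p was 0.0840 without and 0.00150 with the block. Cdkn1b was at 0.40 ± 0.13 and 0.16 ± 0.13, and Cdkn1c at -0.51 ± 0.29 and -0.13 ± 0.30, at 12 h and 36 h, and neither passed without the block.

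Ccnd1, the cyclin that links growth signals to the start of the cycle, changed with time and with CPA in NIP. In NIP, Ccnd1 had 7.94 CPM at 0 h, 14.9 after 12 h of CPA, 13.0 untreated at 12 h, 7.61 after 36 h of CPA and 57.6 untreated at 36 h in replicate 2, and 4.72, 10.7, 18.8, 6.64 and 61.1 CPM in the same order in replicate 1. In NIL, Ccnd1 had 25.2 CPM at 0 h, 9.95 after 12 h of CPA, 15.9 untreated at 12 h, 13.4 after 36 h of CPA and 10.6 untreated at 36 h in replicate 2, and 23.9, 13.5, 9.99, 4.19 and 3.47 CPM in the same order in replicate 1. It was highest in untreated NIP at 36 h, in both replicates, and was lower at 36 h than at 0 h in both NIL replicates. In NIP the 36 h value was higher than at 0 h by 3.24 ± 0.55 (edgeR adjusted p = 0.0160), in NIL the difference was -1.84 ± 0.53 (adjusted p = 0.402 in edgeR). The difference between lines in this change was 5.08 ± 0.76, edgeR adjusted p = 0.100, and 0.0147 with the block. CPA at 36 h gave -3.06 ± 0.54 in NIP (edgeR adjusted p = 0.0104) and 0.32 ± 0.53 in NIL (edgeR adjusted p = 0.769). The line difference in that response was -3.38 ± 0.75, with an edgeR adjusted p of 0.554 and of 0.101 with the block.

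Ccnd2 moved the other way under CPA. At 36 h it had 36.1 and 21.8 CPM with CPA, against 7.43 and 2.62 CPM untreated, in NIP replicates 2 and 1, and 60.7 and 53.3 CPM with CPA, against 53.3 and 30.4 CPM untreated, in NIL. Over both lines it was higher by 1.45 ± 0.39 (edgeR adjusted p = 0.0403), Ccnd1 differed by -1.37 ± 0.37 (edgeR adjusted p = 0.0424), and Ccnd3 by 0.27 ± 0.46 (edgeR adjusted p = 0.739). Ccnd2 and Ccnd1 were the 2 of 21 G1 regulators called at 36 h without the block, against 7.38% of all genes. With it 3 were higher and 2 lower, where 13.6% of all genes were higher and 2366 of 14792 lower. The count higher is near that share. At 12 h 1 was called without the block, Lin54 of the complex that binds CHR elements (0.46 ± 0.13), against 10.9% of all genes. With it 5 were higher and 1 lower at 12 h, where 11.8% of all genes were higher and 1827 of 14792 lower. Ccnd1, Ccnd2 and Ccnd3 were at -0.22 ± 0.36, 0.65 ± 0.38 and -0.06 ± 0.46 without the block.

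The rest of both pathways gave no calls without the block either: of 24 other replication and 24 other mitosis genes, 0 were called over both lines at 12 h or 36 h without the block. With it, at 36 h, 8 other replication genes were higher, and 4 other mitosis genes were higher and 1 lower, where 13.6% of all genes were higher. For the other mitosis genes the count higher is near that share. Among marker lists at 36 h of CPA, postmitotic neuron markers had a median of -0.69 over both lines. Of 12, 3 were called lower without the block and 12 with it, where 607 and 2366 of 14792 genes were lower. Rbfox3, the NeuN protein, was at -1.08 ± 0.18. Endoderm markers had a median of 0.96, with 0 of 12 called without the block and 1 higher with it, below the 13.6% of all genes. Of 8 mesenchyme markers 1 was lower without the block, and 3 higher and 1 lower with it. Their part in the rise of the 10 members with the block was not tested.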

How the data were processed

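Total RNA was sequenced after ribosomal depletion, per the labels' protocols, and the deposited counts are whole reads per gene symbol in 20 libraries. HTSeq 0.6.1p1, Picard, TopHat2 2.1.1 and Bowtie2 2.3.2, with GRCm38, are named in the submitters' processing notes; the strand setting, the filters and the annotation release are not given in the sources used here. The 5 HTSeq summary lines of each file stayed out of library sizes. Groups and replicate numbers came from sample titles. Counts were fitted in edgeR 4.0.16 (R 4.3.3, filterByExpr, TMM, robust quasi-likelihood) over all 20 libraries, one mean per group, with Benjamini-Hochberg adjustment over 14792 genes. Alternatives were DESeq2 1.42.0, other scaling, no filter, each library left out, both libraries high in Rn45s left out, and a replicate block. The replicate difference was also fitted in each line alone. Deviations of same-numbered libraries correlated in all 45 pairs of groups (r 0.306 to 0.84), so the numbers pair libraries. Blocked counts stand beside the member counts they change, and for other lists only where this is stated. Without the block the biological coefficient of variation was 27.5% (10 residual degrees of freedom), with it 15.7% (9). The labels do not name separate cultures, so p-values cover the spread between the libraries only, which may be technical. Gene positions are from GENCODE on GRCm38. The code was tested on simulated data. The members and lists were chosen with earlier results of these data known. Named were 14 members picked by role, in each comparison up to 4 members a role and up to 4 genes of every other list with the smallest p, members of opposite sign, the D-type cyclins, Cdkn1a, Cdkn1b and Cdkn1c. All other members are given by their values or counts.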

Additional observations from a re-analysis of the deposited data

Results flagged for a closer look

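For 6 members the difference between replicates was not the same in the 2 lines by the interaction term in edgeR, and each value is the log2 difference of replicate 2 over replicate 1 in NIP minus the same in NIL. It was -0.904 for Cdt1, -0.662 for Mcm6, -0.464 for Pcna and -0.516 for Mcm4, which encode a loader of the replicative helicase, its subunits or the clamp. Cyclin E2 (Ccne2) had -0.901 and the passenger subunit Cdca8 -0.725. Within the lines, Mcm6 differed by 0.51 ± 0.14 in NIP and 1.16 ± 0.09 in NIL, and Cdca8 by 0.67 ± 0.16 in NIP and 1.38 ± 0.11 in NIL (log2 ± SE). Each of the 6 calls is lost without at least 1 of the 20 libraries.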

How the results depend on the processing

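The lower level of all 36 members in NIP over the 5 conditions held in every setting run and without any one library, and 35 members stayed higher in replicate 2 without any one library. The single conditions depended on how the spread was modelled. With DESeq2, members called in NIP against NIL numbered 6 at 0 h, 12 and 19 untreated at 12 h and 36 h, and 5 and 26 after 12 h and 36 h of CPA. The replicate block gave 33, 36, 35, 34 and 35 in that order, and the block without both libraries high in Rn45s, a setting chosen after seeing the data, gave 33, 36, 34, 34 and 35. Leaving out both libraries without the block gave 2 untreated at 12 h, 1 untreated at 36 h, 0 after 36 h of CPA, and 3 for the difference between lines in the replicate effect; no filter on low counts gave 5 after 36 h of CPA. The block gave 6 members for 36 h against 0 h in NIP and 3 over both lines, 1 and 2 without both libraries. For CPA the block gave 4 in NIL at 36 h, 3 in NIP at 12 h, 3 over both lines at 12 h and 10 at 36 h, and 5, 2, 3 and 9 without both libraries. The block changed no other count of member calls. Leaving out 1 library at a time gave 0 to 4 calls at 0 h, 0 to 6 untreated at 12 h, 1 to 6 untreated at 36 h, 0 to 1 after 12 h of CPA, 0 to 22 after 36 h of CPA, and 0 to 10 for the replicate effect between lines. At 0 h it was NIP 0 h replicate 2 whose absence left 0 calls, at 12 h NIP 12 h replicate 1 or NIL 12 h replicate 2, and at 36 h NIP 36 h of either replicate or NIL 36 h replicate 2 left 1. The causes were not tested. No member called in the edgeR fits changed sign in any setting.

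With 2 libraries a group, and single members at 5 to 2724 reads, small differences between single conditions were not detectable. Time and CPA each rest on 4 matched pairs, which move apart at 36 h of CPA. Line is not separated from the cultures in which each line was grown, because the labels do not say how these were set up. Levels are relative to library size with TMM scaling and are not amounts per cell.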

Other observations

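The promoter words stood in like shares in genes of the same pathways outside the 36. A CHR word was found in 15 of 20 promoters of other mitosis genes (75.0%), and an E2F word in 8 of 18 of other replication genes (44.4%), against 15.7% and 4.55% of the genes tested here. Nearest E2F words of the 6 replication members that hold one had a median position 15 bases before the RefSeq start, and nearest CHR words of the 13 mitosis members a median position at base 3 after it.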
